A study of Mus musculus with 16 samples.

Results

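The peaks of histone H3 trimethylated on lysine 9 (H3K9me3) were compared between sorted hair follicle stem cells and the cells sorted beside them in early anagen. The members are all peaks of the 2 deposited H3K9me3 lists of that stage, 42277 peaks of the stem cells and 17873 of the other cells, 60150 of the 219698 peaks in the 12 lists of the series. The stem cells, EA-HFSCs, are the CD34+/α6-integrin+ bulge cells, and the non-EA-HFSCs (labelled nEA-HFSCs) are the CD34-/α6-integrin+ cells of the same skin, a mixture in which cells of the epidermis and of the lower outer root sheath make up most. Both came from wild-type CD1 x FVB mice, male by the labels though the methods of the study name both sexes for most of its work, at postnatal days (PD) 22 to 25, with 15 to 20 mice in a preparation. Chromatin was cut with micrococcal nuclease and precipitated with H3K9me3 antibodies, for which the labels name Millipore and Abcam. The reads of independent experiments were pooled, and MACS 1.4 called peaks on the mm9 genome, with the IgG library of each population as its background. There was 1 list per population, so differences between the populations have no replicate error and were not tested. Peaks with at least 1 bp in common with the other list were called shared, and the rest EA-only or non-EA-only. Intervals in brackets are 95% Wilson intervals for shares and ratios of peak numbers, and binomial order-statistic intervals for medians. They cover counting error only, and neighbouring peaks are not independent. The lists do not give the depth behind a peak, and the methods of the study state that reads did not saturate peak detection for H3K9me3. A peak's score is 10 times the negative log10 of its p-value, with 40 as the lowest in both lists, and it ranks peaks within a list but does not compare heights between lists.

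H3K9me3 is written by enzymes such as Suv39h1, Suv39h2 and Setdb1 and is bound by the HP1 proteins, which pack DNA into compact and mostly silent chromatin. It is best known from pericentromeric repeats, from endogenous retroviruses and from clusters of zinc-finger (Zfp) genes, where it often lies over the zinc-finger exons near the gene end. H3K4me3 marks the starts of active genes, and H3K27me3 is deposited by Polycomb complexes over silent developmental genes. In most tissues H3K9me3 is scarce at starts that carry H3K4me3.

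The sorted populations were checked through H3K4me3 at marker genes, within 3000 bp of the gene start. Cd34, the sort marker that separates the populations, had an H3K4me3 peak with a score of 3100 in EA-HFSCs and none in non-EA-HFSCs, where an H3K27me3 peak with a score of 271 lay on it. Itga6, the gene of the α6-integrin used to sort both, had no H3K4me3 peak in either. Over the 10 HFSC markers, H3K4me3 lay on 9 in EA-HFSCs and 8 in non-EA-HFSCs, and H3K27me3 on 0 and 6. Krt15, Sox9 and Nfatc1 had H3K4me3 scores of 3100 in both populations. Lgr5 and Lhx2, a receptor and a transcription factor of bulge stem cells, had H3K4me3 scores of 3100 in EA-HFSCs, and in non-EA-HFSCs they had H3K4me3 scores of 399 and 306 and also H3K27me3 peaks. Krt1, a keratin of differentiating epidermis, had an H3K4me3 peak in non-EA-HFSCs alone (score 1643), and Ly6a had scores of 103 and 1635. Of the other epidermal and upper follicle markers matched, Krt10 and Lrig1 had H3K4me3 in both and Ivl in neither, 3 and 4 of 5 in all. These are presence calls, and their scores rank peaks within a list only. The basal keratinocyte genes Krt5, Krt14, Itgb4 and Col17a1 had H3K4me3 in both and Trp63 in neither, 4 of 5 in each population. Of markers of other cells, H3K4me3 peaks lay on 0 of 5 leukocyte genes in either population, on 3 of 5 melanocyte genes in each (Mitf, Dct and Pmel, but not Tyr or Mlana), on 4 and 3 of 5 fibroblast genes in EA-HFSCs and non-EA-HFSCs, and on 1 of 4 endothelial genes in each. The part of other cell types in the H3K9me3 difference was not tested.

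Sequences of the highest-scoring placed peak of 6 kinds are shown because the sets compared here differ in their other marks and in CpG content. Each is the middle 200 bases of the peak on the plus strand of mm9 (NCBIM37), with CpG dinucleotides in capitals.
EA-only peak on H3K4me3, near Sox2, chr3:34560387-34560586: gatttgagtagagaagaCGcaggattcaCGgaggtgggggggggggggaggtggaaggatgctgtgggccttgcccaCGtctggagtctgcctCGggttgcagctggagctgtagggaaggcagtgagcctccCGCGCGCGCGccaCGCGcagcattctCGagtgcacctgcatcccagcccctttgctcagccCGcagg
EA-only peak on H3K27me3, near Barhl2, chr5:106897684-106897883: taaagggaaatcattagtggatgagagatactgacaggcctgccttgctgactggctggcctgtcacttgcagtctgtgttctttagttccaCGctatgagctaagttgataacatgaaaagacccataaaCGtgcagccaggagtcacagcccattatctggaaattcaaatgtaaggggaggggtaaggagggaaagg
EA-only peak on both marks, at Dlx6, chr6:6812384-6812583: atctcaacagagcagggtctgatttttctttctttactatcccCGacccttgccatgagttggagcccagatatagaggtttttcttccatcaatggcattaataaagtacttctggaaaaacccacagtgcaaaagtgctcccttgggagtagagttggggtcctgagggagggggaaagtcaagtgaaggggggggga
EA-only peak on neither mark, over AY036118, chr17:39982759-39982958: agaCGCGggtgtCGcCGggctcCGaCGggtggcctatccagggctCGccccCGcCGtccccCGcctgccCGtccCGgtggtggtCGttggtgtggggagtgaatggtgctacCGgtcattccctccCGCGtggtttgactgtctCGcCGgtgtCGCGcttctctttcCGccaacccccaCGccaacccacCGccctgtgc
non-EA-only peak on neither mark, nearest start Prl2c2, chr13:13022193-13022392: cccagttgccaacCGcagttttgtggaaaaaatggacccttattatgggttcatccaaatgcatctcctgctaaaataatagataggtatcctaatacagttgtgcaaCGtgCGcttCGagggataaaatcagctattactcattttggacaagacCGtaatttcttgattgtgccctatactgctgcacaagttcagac
shared non-EA-HFSC peak on neither mark, nearest start Gm10479, chr12:20236277-20236476: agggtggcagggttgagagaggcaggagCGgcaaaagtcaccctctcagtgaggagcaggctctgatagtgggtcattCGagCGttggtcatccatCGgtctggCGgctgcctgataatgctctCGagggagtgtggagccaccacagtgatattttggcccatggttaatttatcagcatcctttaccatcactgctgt

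The H3K4me3-marked EA-only peak spans 9833 bp between protein-coding genes, with its middle 11560 bp from the start of Sox2, a stem cell transcription factor, inside the long non-coding gene Sox2ot, and its middle 200 bases hold 13 CpG. Barhl2 and Dlx6, the genes nearest to the EA-only peaks on H3K27me3 and on both marks, encode homeodomain proteins, and the middles of those peaks hold 2 and 1 CpG, although the whole peaks hold 322 and 278. The EA-only peak on neither mark (score 1193, 6102 bp, 63.7% GC) lies on chromosome 17 over the pseudogene AY036118, at the mm9 copy of the multicopy ribosomal RNA gene, 362695 bp from the nearest protein-coding start. In the middle of the non-EA-only peak there are 5 CpG at 41.5% GC, and in that of the shared peak 6 at 54% GC.

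EA-HFSCs had more H3K9me3 peaks than non-EA-HFSCs, and most peaks of either list had no counterpart in the other. The number of peaks does not measure the total amount of the mark. By western blot of sorted early anagen cells, the study reported less H3K9me3 per total H3 in HFSCs than in non-HFSCs. The ratio of peak numbers was 2.37 (2.32 to 2.41), while the mean peak width was 0.670 times that of non-EA-HFSCs and the covered length 1.58 times. With equal numbers of top-scoring peaks the covered length was 0.939 times that of non-EA-HFSCs, the other direction. A non-EA-HFSC peak overlapped 3634 EA-HFSC peaks, 8.60% (8.33 to 8.87%), and an EA-HFSC peak overlapped 3177 non-EA-HFSC peaks, 17.8% (17.2 to 18.3%). The second share was lower under other settings: 8.95% against 9.82% with equal numbers, 6.52% against 7.40% with an overlap of 50% of the peak, and 5.44% against 4.25% at a score of at least 100, so the order of the shares was not kept in the first 2 of these. That left 38643 EA-only and 14696 non-EA-only peaks. The other list covered 0.920% and 1.48% of the gap-free genome, in that order. These are shares of bases, and a peak of some width meets a list by 1 bp more often than a single base does. Counted in bases, 2.26 Mb was covered in both, 5.95% of the EA-HFSC and 9.42% of the non-EA-HFSC covered length.

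The H3K4me3 lists of the same populations were far more alike. A non-EA-HFSC peak overlapped 83.6% (83.1 to 84.1%) of the EA-HFSC H3K4me3 peaks, and an EA-HFSC peak overlapped 77.4% (76.9 to 77.96%) in the other direction. For H3K27me3 the shares were 40.8% (40.2 to 41.4%) and 47.5% (46.7 to 48.2%). The ratio of peak numbers was 0.877 (0.861 to 0.893) for H3K4me3 and 1.46 (1.43 to 1.49) for H3K27me3, so that H3K9me3 had both the highest ratio and the lowest overlap of the 3 marks. These lists also differ in covered length, which sets how much overlap is possible. The marks were called at unlike thresholds, with a lowest score of 50 for H3K4me3 and of 40 for H3K9me3 and H3K27me3. By the methods of the study, peak detection was near saturation for H3K4me3 but not for the other marks. The part of threshold and depth in the order of the marks was not tested.

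The excess of EA-HFSC peaks changed with the score that was asked for. The ratio fell to 2.02 at a score of at least 50, to 1.37 (1.32 to 1.42) at 100 and to 1.04 (0.967 to 1.13) at 200, with 1357 and 1300 peaks left. It rose again to 1.47 (1.26 to 1.73) at 500 and 2.39 (1.64 to 3.49) at 1000, where 91 EA-HFSC and 38 non-EA-HFSC peaks remained. At a score of at least 100, 5737 EA-HFSC and 4190 non-EA-HFSC peaks were left. The EA-HFSC excess therefore lay mostly at scores below 200, with a small further excess at scores of at least 500. In EA-HFSCs 13.6% of the peaks and in non-EA-HFSCs 23.4% reached a score of 100.

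The peaks also differed in shape, with narrow ones in EA-HFSCs and broader ones in non-EA-HFSCs when all peaks were counted. The median width was 651 bp (648 to 655) for EA-only and 1031 bp (1023 to 1039) for non-EA-only peaks, 1.58 times as much. With equal numbers of top-scoring peaks the medians were 1027 and 1050 bp, 1.02 times as much. Among shared peaks the contrast was larger, at 635 bp (627 to 645) in the EA-HFSC list and 1390 bp (1355 to 1430) in the non-EA-HFSC list. Shared regions were thus typically a short EA-HFSC peak inside a longer non-EA-HFSC one. The median shared EA-HFSC peak lay within its counterpart over 100% of its length, and the median shared non-EA-HFSC peak was covered over 40.04%. One non-EA-HFSC peak spanned 9 EA-HFSC peaks. Peaks over 1000 bp made up 26.2% of the EA-only, 16.1% of the shared EA-HFSC, 53.3% of the non-EA-only and 75.3% of the shared non-EA-HFSC peaks. Above 5000 bp the order of the one-sided sets was the other way round, with 205 EA-only (0.530%) and 49 non-EA-only peaks (0.333%).

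**Figure D1:**
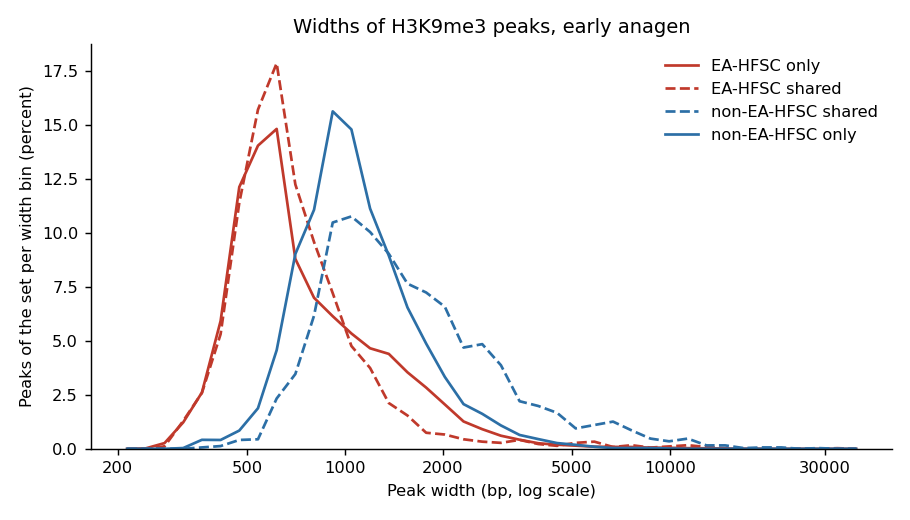
Width of H3K9me3 peaks (x, bp, log scale) against the share of the peaks of a set in each width bin (y, percent), for EA-HFSCs in red and non-EA-HFSCs in blue, with one-sided peaks as solid and shared peaks as dashed lines. The EA-HFSC curves peak at lower widths (medians 651 and 635 bp) than the non-EA-HFSC curves (1031 and 1390 bp).

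EA-only peaks often lay on H3K4me3 or H3K27me3 peaks of EA-HFSCs, while non-EA-only peaks seldom lay on those of non-EA-HFSCs. Of the EA-only peaks, 10272 lay on H3K4me3, 26.6% (26.1 to 27.02%), and 11265 on H3K27me3, 29.2% (28.7 to 29.6%). Among non-EA-only peaks the counts were 93, 0.633% (0.517 to 0.775%), and 373, 2.54% (2.30 to 2.81%). These marks covered between 1.91% and 2.67% of the bases of the genome, which is less than the share that a 1 bp overlap of whole peaks would reach at random positions. The shares were therefore 42.0 times apart for H3K4me3 and 11.5 times apart for H3K27me3, and in non-EA-only peaks the H3K4me3 share was below the share of the genome that H3K4me3 covered.

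Of all EA-only peaks, 8319 were on H3K4me3 only, 9312 on H3K27me3 only, 1953 on both and 19059 (49.3%) on neither. In the non-EA-only set, 14243 (96.9%) were on neither. Shared peaks stood between the one-sided sets in both marks, and in H3K4me3 much nearer to the non-EA-only set. Of the shared EA-HFSC peaks, 2.48% lay on H3K4me3 and 20.9% on H3K27me3, and for the shared non-EA-HFSC peaks these shares were 2.20% and 12.8%. In EA-only peaks the width went with the marks. The median was 549 bp on neither mark, 758 bp on H3K27me3, 1222 bp on H3K4me3 and 1344 bp on both, and the share with a score of at least 100 was 1.34%, 18.8%, 27.3% and 49.1%. Among non-EA-only peaks the medians lay between 979 and 1224 bp in all 4 classes, and peaks on neither mark reached 100 in 19.1%.

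**Figure D2:**
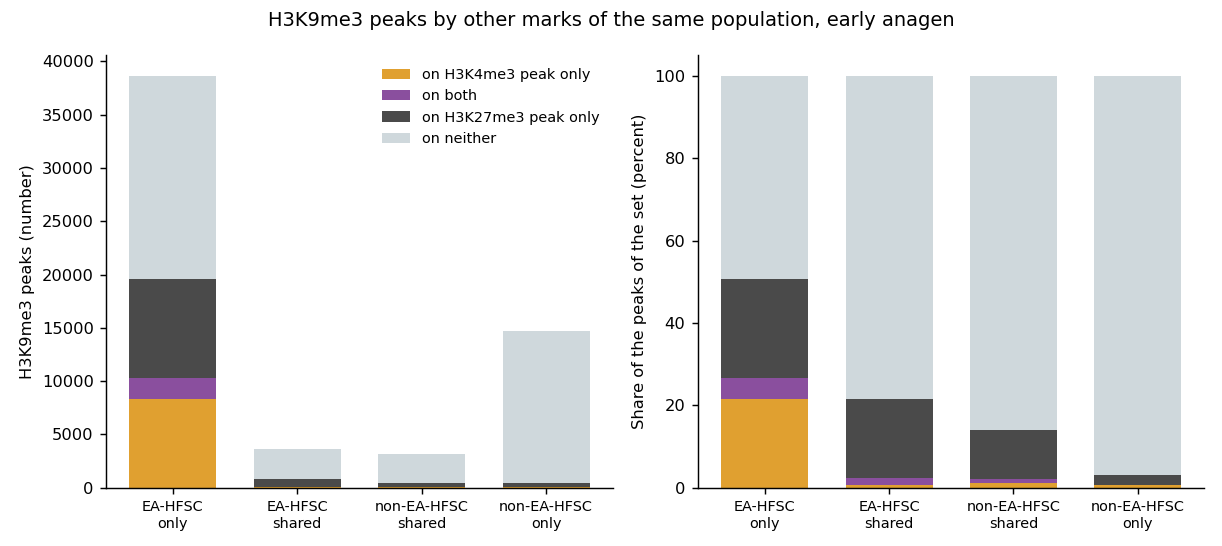
Number (left) and share in percent (right) of H3K9me3 peaks in the 4 sets, split by whether a peak overlaps an H3K4me3 peak, an H3K27me3 peak, both or neither of the same population. About as many EA-only peaks lie on neither mark (49.3%) as on at least 1 of them, whereas 96.9% of the non-EA-only peaks lie on neither.

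EA-only peaks lay on H3K4me3 of either population about equally often, and on H3K27me3 of EA-HFSCs more often than on that of non-EA-HFSCs. Of the EA-only peaks, 25.4% (25.0 to 25.8%) lay on an H3K4me3 peak of non-EA-HFSCs and 22.8% on an H3K27me3 peak of non-EA-HFSCs, against 26.6% and 29.2% for the marks of EA-HFSCs. Read from the other side, 42.7% (42.1 to 43.4%) of the EA-HFSC H3K4me3 peaks and 30.5% (29.98 to 31.1%) of the H3K27me3 peaks held an H3K9me3 peak. In non-EA-HFSCs these shares were 0.665% and 3.99%. When peaks on an H3K4me3 or H3K27me3 peak of either population were set aside, 20785 EA-HFSC and 16170 non-EA-HFSC peaks remained, and the ratio of peak numbers fell from 2.37 to 1.29 (1.26 to 1.31). EA-only peaks are by definition absent from the H3K9me3 list of non-EA-HFSCs, although their shares on the H3K4me3 peaks of either population were close. The part of the antibodies and of the IgG background in this was not tested.

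On the mm9 gene annotation, most peaks of both one-sided sets lay between genes or in introns, and the EA-only set had a larger share in promoters and 5′ UTRs. A peak was placed by its middle, and promoters reached from 1000 bp before to 100 bp after the transcript starts of protein-coding genes. Of the EA-only peaks with a placed position, 4736 of 38589 lay in promoters, 12.3% (11.9 to 12.6%), and of the non-EA-only peaks 79 of 14459, 0.546% (0.439 to 0.680%). Promoters make up 1.83% of the gap-free genome, so that the EA-only share was 6.70 times and the non-EA-only share 0.298 times that of the genome. In 5′ UTRs there were 601 EA-only peaks, 13.6 times the genome share, and 3 non-EA-only peaks. Intergenic peaks made up 50.4% (49.9 to 50.9%) of the EA-only and 69.6% (68.8 to 70.3%) of the non-EA-only set, against 60.5% of the genome. Introns held 31.9% and 28.4%, against 35.0%. Shared peaks were intergenic in 67.3% and 69.2% in the EA-HFSC and non-EA-HFSC lists, and 1.43% and 1.44% of them lay in promoters.

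**Figure D3:**
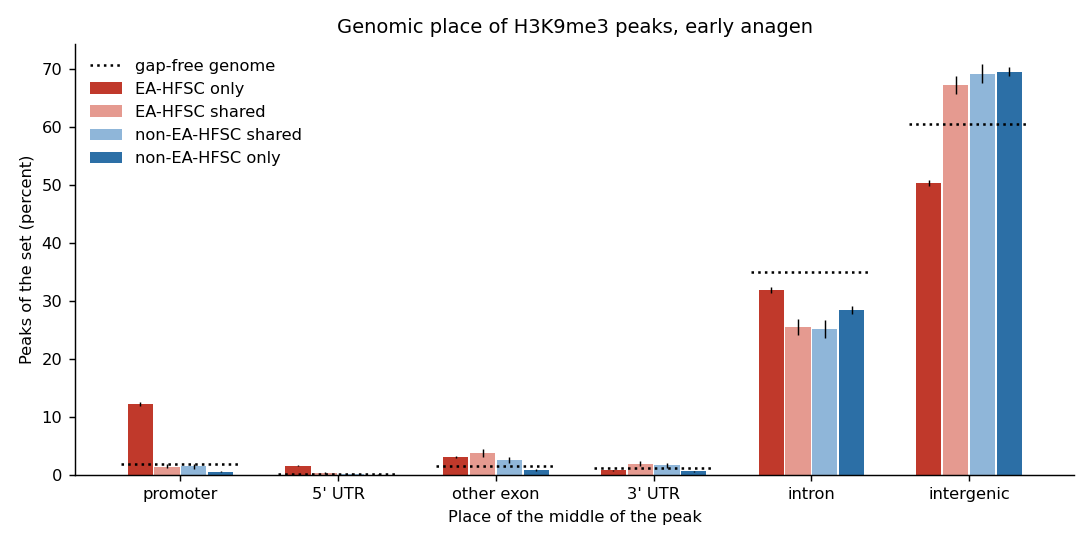
Share of H3K9me3 peaks (y, percent, with 95% Wilson intervals) whose middle lies in each class of region (x) for the 4 sets, with the share of the gap-free genome as a dotted line. The EA-only bar stands above the genome in promoters (12.3% against 1.83%) and below it between genes (50.4% against 60.5%), while the non-EA-only set shows the opposite (0.546% and 69.6%), and the shared sets are near the genome in promoters (1.43% and 1.44%) and above it between genes.

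The promoter peaks of EA-HFSCs were nearly all on H3K4me3. Of the 4736 EA-only promoter peaks, 4249 lay on H3K4me3, 89.7% (88.8 to 90.6%), and 850 on H3K27me3. Between genes this was turned around, with 1112 of 19443 EA-only peaks on H3K4me3, 5.72% (5.40 to 6.05%), and 6327 on H3K27me3, 32.5% (31.9 to 33.2%). Of the 79 non-EA-only promoter peaks, 7 lay on H3K4me3 and 9 on H3K27me3. The distance from the middle of the peak to the nearest gene start had a median of 24.1 kb in EA-only and 47.5 kb in non-EA-only peaks, and 26.6% and 2.31% of the peaks lay within 3000 bp of a start. EA-only peaks were somewhat more often near a non-EA-HFSC peak than the genome at large, with 16.5% within 10 kb against 11.3% of genome positions. For non-EA-only peaks these values were 36.0% and 23.6%.

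The DNA under the EA-only peaks was richer in CpG, and this went with H3K4me3. EA-only peaks had a median GC content of 46.8% and a pooled ratio of observed to expected CpG of 0.462, and non-EA-only peaks had 42.7% and 0.185, with 41.8% and 0.191 over the genome. CpG-rich peaks (GC above 50% and a CpG ratio above 0.6) made up 17.04% (16.7 to 17.4%) of the EA-only and 0.187% (0.128 to 0.272%) of the non-EA-only set. Of the 6575 CpG-rich EA-only peaks, 6370 lay on H3K4me3. The peak near Sox2 shown above, at 49.1% GC and a CpG ratio of 0.472, is below both limits. EA-only peaks on neither mark had a pooled CpG ratio of 0.182, close to the 0.185 of their non-EA-only counterparts, with a median GC content of 44.1% against 42.6%. The strongly CpG-rich ribosomal RNA peak shown above is 1 of only 44 CpG-rich peaks among the 19022 placed EA-only peaks on neither mark.

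At gene starts H3K9me3 was common in EA-HFSCs and rare in non-EA-HFSCs. Of the 22367 protein-coding genes, 45.2% had an H3K9me3 peak within 3000 bp of the start in EA-HFSCs and 2.8% in non-EA-HFSCs. With 9771 genes marked in EA-HFSCs alone (43.7%), 277 in non-EA-HFSCs alone (1.24%) and 349 in both (1.56%), 55.8% (51.8 to 59.6%) of the genes marked in non-EA-HFSCs were also marked in EA-HFSCs. The share of genes covered by an EA-HFSC peak rose from 2.88% at 5000 bp upstream of the start to 34.5% at 200 bp downstream and fell back to 2.28% at 5000 bp downstream. In non-EA-HFSCs it went the other way, from 1.25% at 5000 bp upstream to a low of 0.362% at 700 bp downstream. Gene starts were thus the densest place for H3K9me3 peaks in EA-HFSCs and a sparse one in non-EA-HFSCs.

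Which other mark a start carried went with H3K9me3 in EA-HFSCs. Of the 11742 genes with H3K4me3 and no H3K27me3 at the start in EA-HFSCs, 65.7% (64.8 to 66.5%) had an H3K9me3 peak there. The share was 79.8% (77.8 to 81.6%) of the 1766 genes with both marks and 54.2% (51.3 to 57.0%) of the 1152 with H3K27me3 alone. Of the 7707 genes with neither mark, 4.88% (4.42 to 5.38%) had H3K9me3. In non-EA-HFSCs the shares were 1.96%, 4.43%, 4.26% and 3.31% in the same order. The populations were thus closest at starts with neither mark and far apart at the others. Of the 9771 genes with H3K9me3 in EA-HFSCs alone, 90.9% carried H3K4me3 in EA-HFSCs and 89.7% in non-EA-HFSCs, against backgrounds of 60.4% and 59.6% of all genes. Of the 277 genes marked in non-EA-HFSCs alone, 31.0% (25.9 to 36.7%) carried H3K4me3 in non-EA-HFSCs and 63.5% (57.7 to 69.0%) neither mark.

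The highest-scoring gene starts of EA-HFSCs without a non-EA-HFSC peak belonged to developmental transcription factors. They included Sim1, Dlx6, Onecut2, Hoxc10, Evx2, Nkx2-1, Otx1, Hmx2 and Hand2, with scores from 1403 (Hand2) to 2983 (Sim1) and peak widths from 7009 bp (Evx2) to 12762 bp (Hoxc10). These 9 encode transcription factors of embryonic patterning, such as Nkx2-1 of thyroid and lung and Hand2 of heart and limb. All 9 starts carried H3K27me3 in EA-HFSCs, and all but those of Hoxc10 and Evx2 carried H3K4me3 there as well. In non-EA-HFSCs the starts of Hoxc10 and Evx2 did not carry H3K27me3, and the other 7 did. Sim1, a factor of hypothalamic neurons on chromosome 10 from 50615457 to 50708958, had an EA-HFSC peak of 11028 bp over its start. A non-EA-HFSC peak with a score of 94.9 overlapped its downstream end, beyond the 3000 bp window, so that this peak counts as shared while the start does not. Peaks of this kind without a nearby start were also found. The highest-scoring EA-only peak, with a score of 2449 over 10885 bp, lay between genes 10315 bp from the start of Barhl2 on H3K27me3 of both populations.

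Other high-scoring EA-HFSC peaks met a far smaller non-EA-HFSC peak. Examples lay at Tbx15, a T-box factor of skin patterning and skeleton: 1 peak inside the gene (score 2101, 14600 bp) and 1 just upstream of its start (score 1523, 6122 bp), met by non-EA-HFSC peaks of 1207 and 963 bp with scores of 66.9 and 67.8. At Tlx3, a homeobox gene of neurons, an EA-HFSC peak of 6193 bp (score 1798) met a non-EA-HFSC peak of 3524 bp (score 178). Each of these 3 lay on H3K27me3 in both populations. So did an intergenic EA-HFSC peak of 5935 bp (score 1560) on chromosome 3, 30427 bp from the start of Fcgr1, which met a non-EA-HFSC peak with a score of 46.4.

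The highest-scoring starts marked in non-EA-HFSCs alone were of another kind. The 10 with the highest scores were 2210016F16Rik, Zfp874b, Zfp112, Zfp125, Trim24, Orc2, D130040H23Rik, Gm17635, Gm13151 and 6720489N17Rik, with scores from 509 (6720489N17Rik) to 897 (2210016F16Rik). Zfp874b, Zfp112 and Zfp125 are named as zinc-finger genes, Trim24 encodes a chromatin-binding cofactor and Orc2 a subunit of the origin recognition complex. None of the 10 starts carried H3K27me3 in either population. At 5 of them, Zfp874b, Zfp112, Trim24, Orc2 and 2210016F16Rik, there was H3K4me3 in both. The widest of these non-EA-HFSC peaks were 11214 bp at Orc2, upstream of the start, and 10818 bp at Zfp112. Over all 277 starts marked in non-EA-HFSCs alone, 39 (14.1%) carried H3K27me3 there, against 15.6% of all genes. Zfp genes made up 15 of these 277 starts, and 365 of the 22367 protein-coding genes. Away from gene starts, the 5 highest-scoring non-EA-only peaks carried neither other mark in either population. They lay 75366 bp from the start of Prl2c2 (score 1538), 34287 bp from Gm9805 (1120), 299601 bp from Btg1 (1109), 32488 bp from Zfp936 (947) and in the 3′ UTR of Gm13154 (860).

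Among the 349 starts marked in both populations, Klf14 had the highest value by the lower of its scores. Klf14, a Krüppel-like factor, had a peak of 6806 bp with a score of 1303 in EA-HFSCs and one of 2607 bp with a score of 707 in non-EA-HFSCs, on both other marks in each population. The next 9 were Tcfl5, Zfp850, Slc7a10, Hmcn1, Zfp943, Gm10837, Hhex, AU041133 and Tlx1. Hhex and Tlx1, homeobox genes, had wide EA-HFSC peaks (7418 and 10245 bp) and narrow non-EA-HFSC peaks (1725 and 1960 bp), all on H3K27me3. Zfp850 and AU041133 had the reverse, with 2035 and 1103 bp in EA-HFSCs and 10254 and 6929 bp in non-EA-HFSCs, on neither mark. The starts shared by both lists thus contained members of each of the patterns above.

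Gene lists differed in how often their starts were marked in EA-HFSCs. The 421 symbols that the study lists as constantly expressed genes matched 422 genes, of which 332 had H3K9me3 at the start in EA-HFSCs, 78.7% (74.5 to 82.3%), and 8 in non-EA-HFSCs, where all genes gave 45.2% and 2.8%. Ribosomal protein genes, all 76 with H3K4me3, had 59 (77.6%) and 0, and replication-dependent histone genes, of which 65 of 67 carried H3K4me3, had 27 (40.3%) and 0. A share of up to 4.81% of the ribosomal protein genes and of up to 5.42% of the histone genes is within the interval of those counts of 0. Genes downregulated in the bulge had 57 of 99 and 2 (Abcg1 and Scin, each marked in both). For genes upregulated in the bulge, 203 of 220 carried H3K4me3 in EA-HFSCs and 87 of 220 H3K9me3, 39.5% (33.3 to 46.1%). This interval includes the background of 45.2%. In non-EA-HFSCs 7 of them were marked: Aplp1 and Mfge8 there alone, and Hmcn1, Klhl22, Pdzrn4, Peg3 and Tmem184c in both.

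Hox cluster genes had H3K9me3 at 31 of 40 starts in EA-HFSCs, 77.5% (62.5 to 87.7%), and at 3 in non-EA-HFSCs (Hoxd3, Hoxd4 and Hoxd9). Their starts carried H3K27me3 in 24 of 40 cases in EA-HFSCs and in 20 in non-EA-HFSCs. Keratin genes had 6 of 51 and 0, and keratin-associated protein genes 1 of 46 in each (Krtap5-4 in EA-HFSCs and Krtap12-1 in non-EA-HFSCs). Receptor genes of smell, which are silent in skin, were marked less often in EA-HFSCs than the 45.2% of all genes. The counts there were 44 of 1113 olfactory (3.95%) and 9 of 322 vomeronasal receptor starts (2.80%). In non-EA-HFSCs they were 11 (0.988%) and 7 (2.17%), against 2.8% of all genes. The vomeronasal interval there, 1.06 to 4.42%, includes that background. Of the 44 olfactory receptor starts, the overlap with the non-EA-HFSC list was 1, Olfr1419. Over all starts marked in EA-HFSCs, 3.45% were also marked in non-EA-HFSCs.

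Genes of the H3K9 methylation machinery (20 symbols, 21 annotated genes) had H3K9me3 at 13 starts in EA-HFSCs, 61.9% (40.9 to 79.2%), and at 1 in non-EA-HFSCs. The interval includes the 45.2% of all genes, and 19 of the 21 starts carried H3K4me3. The methyltransferase genes Suv39h2, Setdb2, Ehmt1 and Ehmt2 were among the 13, with scores of 58.8, 171, 47.4 and 70.98, and Suv39h1 and Setdb1 had no peak in either population. The HP1 genes Cbx1, Cbx3 and Cbx5 (69.5, 128 and 59.6), the corepressor Trim28 (53.5) and the demethylases Kdm4a, Kdm4d, Kdm3a and Kdm1a (70.5, 78.1, 41.1 and 88.5) were also marked. Atf7ip, a partner of Setdb1, was marked in both with scores of 48.1 and 40.3, near the lowest score in either list.

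Imprinted genes had 11 of 24 starts marked in EA-HFSCs, 45.8% (27.9 to 64.9%), and 5 in non-EA-HFSCs, 20.8% (9.24 to 40.5%), with wide intervals. The EA-HFSC share was near the 45.2% of all genes. Leaving aside the short lists of cell markers, no other list had a higher non-EA-HFSC share. Igf2r, Impact, Peg10 and Sgce were marked in non-EA-HFSCs alone and Peg3 in both. The peak at Igf2r, a receptor gene that is expressed from 1 parental copy, had a score of 243 in non-EA-HFSCs, and its start carried H3K4me3 and H3K27me3 there. Peg10 and Sgce share a start region, so their single peak, with a score of 40.01, counts for both. Among germline genes, Ddx4, Stag3 and Sycp3 were marked in EA-HFSCs and Dazl in non-EA-HFSCs, with scores of 91.9, 56.1, 90.4 and 49.1. With 15 genes in the list the intervals are wide, 20.0% (7.05 to 45.19%) in EA-HFSCs and 6.67% (1.19 to 29.8%) in non-EA-HFSCs. The second includes the 2.8% of all genes. No peak lay at the start in either list for 11 of the 15, against 53.5% of all genes.

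**Figure D4:**
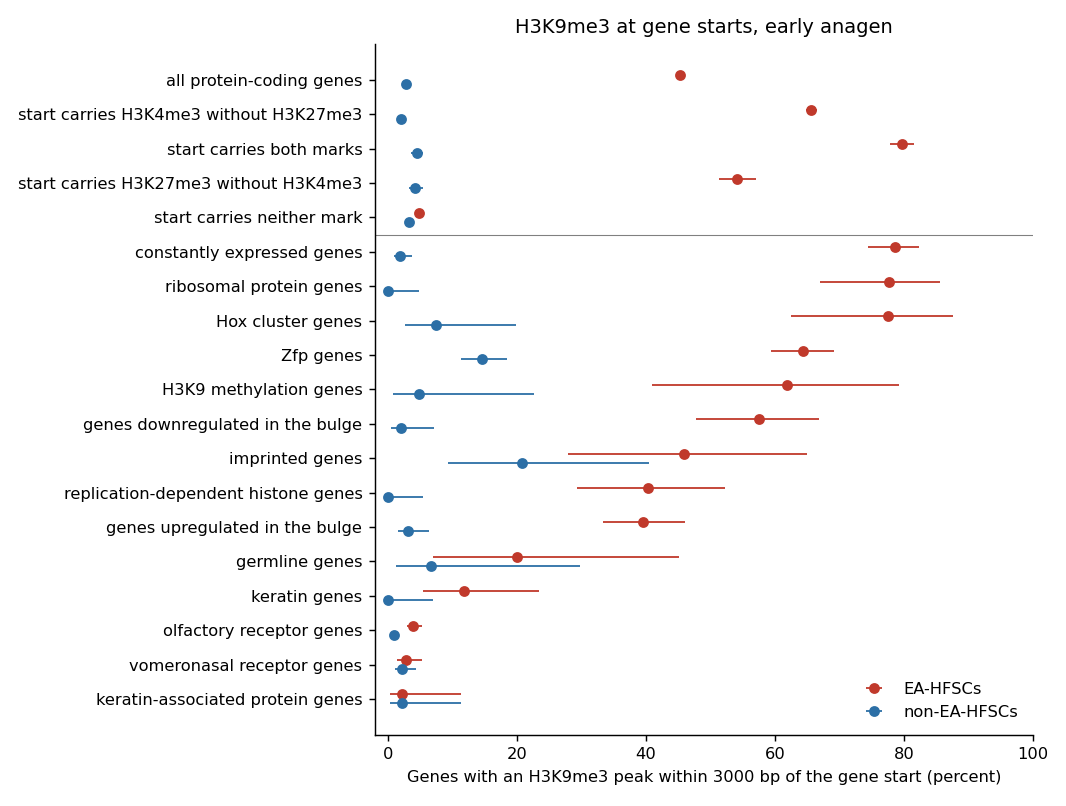
Share of genes (x, percent, with 95% Wilson intervals) with an H3K9me3 peak within 3000 bp of the start in EA-HFSCs (red) and non-EA-HFSCs (blue), for all protein-coding genes, for genes split by the other marks at the start in the same population (above the line) and for gene lists (below it). The populations lie close together at starts with neither mark (4.88% and 3.31%) and far apart at starts with H3K4me3 alone (65.7% and 1.96%).

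Zfp genes had the highest share of genes with a peak anywhere on the gene in non-EA-HFSCs among the lists, and the position of the peaks on them differed between the populations. Of 365 Zfp genes, 235 had a peak at the start in EA-HFSCs, 64.4% (59.3 to 69.1%), and 53 in non-EA-HFSCs, 14.5% (11.3 to 18.5%). Anywhere on the gene, 259 had a peak in EA-HFSCs, 70.96% (66.1 to 75.4%), and 158 in non-EA-HFSCs, 43.3% (38.3 to 48.4%), against 51.1% and 13.4% of all genes. At the start, the share of Zfp genes covered reached 49.6% in EA-HFSCs at 100 bp downstream and was 3.56% in non-EA-HFSCs at the start itself. Near the gene end it was the non-EA-HFSC list that stood high, with 27.9% of the Zfp genes covered at 1200 bp before the end, and the highest EA-HFSC value within 5000 bp of the end was 10.4%. Over all genes, the highest values near the gene end were 3.60% in EA-HFSCs and 1.36% in non-EA-HFSCs.

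Along the gene, 35.1% (31.3 to 39.2%) of the 552 EA-HFSC peaks on Zfp genes had their middle in the first 20% of the gene, and 9.76% (7.04 to 13.4%) of the 338 non-EA-HFSC peaks did. The last 20% held 26.8% (23.3 to 30.7%) and 31.4% (26.6 to 36.5%), with intervals that overlap. Over all protein-coding genes, the first 20% held 49.3% and 20.2% of the peaks and the last 20% held 12.0% and 18.4%. Peaks on Zfp genes thus lay more often in the last 20% than peaks on all genes, in both lists. The peaks on Zfp genes had a median width of 731 bp in the EA-HFSC list and of 1603 bp in the non-EA-HFSC list. A wider peak covers more positions, and the part of width in the values near the gene end was not tested. The first-ranked peak of the non-EA-HFSC list, with a score of 1824 over 13104 bp, was of this kind and had its middle in an exon of Zfp110 on chromosome 7, 10013 bp from the gene start. The EA-HFSC peak within it had a score of 324 over 2484 bp. The other highest-scoring shared non-EA-HFSC peaks were a pair between genes on chromosome 12, 185422 and 170579 bp from the start of Gm10479 (scores 1814 and 1743), 1 in an intron of Pcdhgc5 (score 1627, on both other marks) and 1 at Zfp850 (score 1618). Among the 100 highest-scoring peaks of each set, 0 EA-only, 1 shared EA-HFSC, 15 non-EA-only and 40 shared non-EA-HFSC peaks lay on a Zfp gene. In the whole lists, 552 of 42277 EA-HFSC and 338 of 17873 non-EA-HFSC peaks were counted along Zfp genes. The median widths of these sets of 100 ran from 4199 to 7004 bp, and wide peaks meet a gene more easily.

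**Figure D5:**
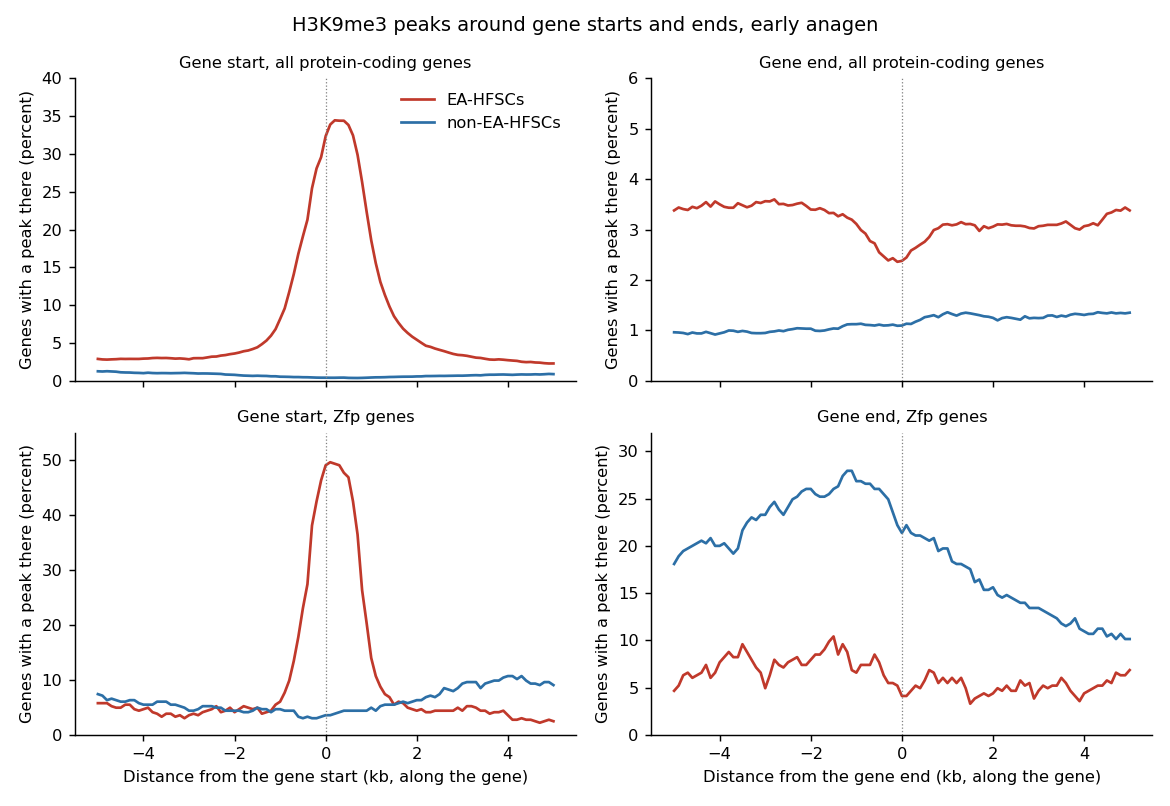
Percent of genes (y) covered by an H3K9me3 peak at each position from 5 kb before to 5 kb after the gene start (left) and gene end (right), for all protein-coding genes (top) and Zfp genes (bottom), in EA-HFSCs (red) and non-EA-HFSCs (blue), with y axes of different range. EA-HFSCs stand high at starts (34.5% of all and 49.6% of Zfp genes at most) and non-EA-HFSCs before the ends of Zfp genes (27.9% at most).

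In windows of 1 Mb, the sides of the comparison were led by different gene clusters. Of 2568 windows, EA-HFSC peaks covered more than non-EA-HFSC peaks in 1712 and less in 806, 31.4%. The median window had 10.5 kb covered in EA-HFSCs and 6.28 kb in non-EA-HFSCs. The largest excess of EA-HFSCs was in the Hoxb cluster on chromosome 11 (96000001 to 97000000), with 174 kb in 106 peaks against 15.5 kb in 12 peaks. It was followed by a window on chromosome 5 with Cux1, Myl10 and Emid2 among its 27 genes, with 157 kb against 16.2 kb, and by the Hoxd cluster with Evx2 on chromosome 2, with 145 kb against 15.7 kb. The largest excess of non-EA-HFSCs was on chromosome 17 (22000001 to 23000000), with 268 kb in 103 peaks against 43.4 kb in 64 peaks, in a window of 12 genes of which 6 are Zfp genes. Next came 2 windows on chromosome 13. One, with 234 kb against 52.2 kb, has 3 Zfp genes among 9, and the other, with 224 kb against 56.0 kb, has 21 Zfp genes among 34. The leading windows of EA-HFSCs had 0 Zfp genes.

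Neighbouring peaks less than 10 kb apart formed 867 groups of at least 5 peaks in EA-HFSCs, with 17.2% of all peaks, and 220 in non-EA-HFSCs, with 10.3%. The largest EA-HFSC groups had 54 peaks each, 1 over Myl10 and Emid2 on chromosome 5 and 1 over Pcdhgc5 and other genes of the protocadherin region on chromosome 18. The group on chromosome 5 held 2 non-EA-HFSC peaks, and the protocadherin group held 20. The largest non-EA-HFSC groups, of 35, 30 and 27 peaks, lay over Gm6712 on chromosome 17, over Zfp808 and Gm17352 on chromosome 13 and over 5430403G16Rik and 4930522L14Rik on chromosome 5, and they held 40, 18 and 21 EA-HFSC peaks.

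All 19 autosomes had more EA-HFSC than non-EA-HFSC peaks. The ratio was lowest on chromosome 13 at 1.69 (1.58 to 1.81) and highest on chromosome 19 at 4.09 (3.63 to 4.61). Chromosome 13 had the most non-EA-HFSC peaks per Mb among the autosomes (11.2), and chromosome 19 the most EA-HFSC peaks (23.2). The X chromosome was poor in both, with 463 and 88 peaks, 2.86 and 0.543 per Mb. On unplaced sequence the order was the other way round, with 120 EA-HFSC and 297 non-EA-HFSC peaks.

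The score of a peak went with the other marks in EA-HFSCs and with sharing in non-EA-HFSCs. Among the lowest-scoring 10% of the EA-HFSC peaks, 8.82% lay on H3K4me3, 18.9% on H3K27me3 and 6.98% were shared. For the highest-scoring 10%, 58.5% (57.0 to 60.0%) lay on H3K4me3, 57.3% (55.8 to 58.7%) on H3K27me3 and 8.37% were shared. In non-EA-HFSCs 10.8% (9.44 to 12.3%) of the lowest-scoring 10% and 44.2% (41.9 to 46.5%) of the highest-scoring 10% were shared, while 0.895% and 1.96% lay on H3K4me3. When EA-HFSC peaks on neither mark were ranked alone, sharing rose from 8.398% (7.31 to 9.63%) in their lowest to 29.7% (27.8 to 31.6%) in their highest 10%. Higher-scoring peaks were also wider. At a score of at least 100 the median width was 1604 bp for EA-only and 1913 bp for non-EA-only peaks, against 651 and 1031 bp over all. A wide peak meets another list by 1 bp more easily, and the part of width in these shares was not tested. Of the 100 highest-scoring EA-only peaks, 93 lay on H3K27me3, and of the 100 highest-scoring non-EA-only peaks 0 did and 1 lay on H3K4me3.

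The H3K9me3 lists of late catagen (PD38 to PD44, 1414 peaks in LC-HFSCs and 18236 in non-LC-HFSCs) showed which of these regions were marked at another stage. A non-LC-HFSC peak overlapped 7.29% (7.04 to 7.56%) of the EA-only, 17.6% (17.02 to 18.2%) of the non-EA-only, 37.0% of the shared EA-HFSC and 43.8% of the shared non-EA-HFSC peaks. For LC-HFSC peaks the shares were 0.176% (0.139 to 0.223%), 4.32% (4.00 to 4.66%), 18.9% and 17.5%. Non-LC-HFSC peaks covered 0.455% and LC-HFSC peaks 0.103% of the gap-free genome. An overlap of 1 bp is also easier for wide peaks, and the median widths of the sets ran from 635 to 1390 bp. Regions shared in early anagen were thus the ones most often marked in late catagen, and EA-only regions the least. Within the EA-only set the non-LC-HFSC share was 14.6% (14.0 to 15.3%) on H3K4me3 and 3.03% (2.79 to 3.28%) on neither mark, and the LC-HFSC share was 0.0195% and 0.236%. Of the 100 highest-scoring peaks, 63 non-EA-only and 1 EA-only peak overlapped an LC-HFSC peak, and 81 and 72 a non-LC-HFSC peak.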

How the data were processed

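Chromatin of sorted cells was sequenced as single-end reads. According to the methods and the submitters' processing notes, the authors trimmed the reads (Trimmomatic 0.22), aligned them to mm9 with Bowtie2, pooled the replicates and called peaks with MACS 1.4. Each deposited list gives the position of each peak and its MACS score. The 4 IgG samples have no list, and the 4 late catagen lists of the other marks were not used here. Overlaps, shares and medians were computed with Python 3.11.15, numpy 2.4.6, pandas 2.3.3 and scipy 1.17.1, and the overlap step was tested on simulated data (4 of 4 settings exact on 20000 peaks) and checked with bedtools 2.31.1. Sequence and genes came from NCBIM37 and GENCODE vM1 (22367 protein-coding genes), and figures were drawn with matplotlib 3.10.9. The 120 and 297 peaks on unplaced sequence entered numbers and overlaps only. The lists hold no read numbers, so depth could not be equalised between them.

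The members and gene lists were chosen with earlier results of these data known. Named were the 5 highest-scoring peaks of each set, the 10 highest-scoring genes of each start class (for both, by the lower score), the 3 leading windows in each direction, and all members of a list with 5 or fewer calls. One item that this rule selects is not reported here. Of the H3K9 methylation and marker lists, the genes printed with values were chosen after the values were seen. Zfp genes are those named Zfp and digits. Alternatives were scores of at least 50 and 100, autosomes only, merging peaks under 1 kb apart, equal numbers of top-scoring peaks, an overlap of 50%, a promoter of 2000 bp upstream to 500 bp downstream, and a start window of 2500 bp.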

Additional observations from a re-analysis of the deposited data

Results flagged for a closer look

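The ratio of HFSC to non-HFSC H3K9me3 peak numbers pointed in opposite directions at the stages. It was 2.37 (2.32 to 2.41) in early anagen and 0.0775 (0.0735 to 0.0818) in late catagen, where LC-HFSCs had 1414 peaks and non-LC-HFSCs 18236. There is 1 pooled list per population, so this difference was not tested. At a score of at least 50 the ratios were 2.02 and 0.0928, and at 100 they were 1.37 and 0.240. The methods of the study state that more reads were used for LC-HFSCs than for EA-HFSCs. They give no separate read numbers for the non-HFSCs, and the part of depth in these ratios was not tested.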

How the results depend on the processing

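Of 89 alternative values for 14 results, 41 moved by less than their counting interval or by less than 1.5 times for gene counts, 47 moved further and 1 changed direction. When the top-scoring peaks were taken in equal numbers, the EA-HFSC to non-EA-HFSC ratio of covered length turned from 1.58 to 0.939. In the same setting, sharing was 9.82% of EA-HFSC and 8.95% of non-EA-HFSC peaks, and EA-only peaks had a median width of 1027 bp (non-EA-only 1050 bp), 20.3% in promoters, 44.6% on H3K4me3 and 39.0% on H3K27me3 (non-EA-only 2.89%). With a score of at least 50, the ratios of number and covered length were 2.02 and 1.43, sharing 8.15% and 14.4%, widths 845 and 1195 bp, EA-only promoters 16.5%, H3K4me3 36.1%, and H3K27me3 32.7% (non-EA-only 2.25%). With a score of at least 100, these were 1.37 and 1.15, 4.25% and 5.44%, 1604 and 1913 bp, 27.1% (non-EA-only 0.879%), 56.7%, and 49.8% (1.69%), and the gene starts marked on 1 side fell to 3474 and 157. Chosen after the data had been seen were scores of at least 200, 500 and 1000, with ratios of number of 1.04, 1.47 and 2.39, and peaks away from H3K4me3 and H3K27me3, with 1.29. With an overlap of 50%, sharing was 7.40% and 6.52%, EA-only peaks lay on H3K4me3 in 24.6% and on H3K27me3 in 28.4%, and non-EA-only peaks on H3K4me3 in 0.198%, with a median width of 1076 bp. Merging peaks gave a covered length ratio of 1.61, 18.5% sharing of non-EA-HFSC peaks, widths of 645 and 1049 bp and 23.0% of EA-only peaks on H3K27me3. The wider promoter held 22.1% and 1.48%. The one-sided sets kept their order in promoters, both marks, width and gene starts in all settings run. The larger shared share of non-EA-HFSC peaks held in 4 of 6 and was lost with equal numbers and with the overlap of 50%. The causes were not tested. No paired analysis was possible because there is 1 pooled list per population. Depth, which the lists do not give, limits every count of peaks.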
